A study of Mus musculus with 16 samples.

Results

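The comparison described here is between B6-TgYF mice, which carry a transgene for a catalytic mutant of the meiotic histone methyltransferase PRDM9, and B6 mice without a transgene. It was chosen by antibody and line and rests on 6 of the 16 samples of the series: 2 H3K4me3 ChIP-seq libraries and 1 input of each line. All 6 came from whole testis at 13 days post-partum. The B6 samples are labelled C57BL/6JOlaHsd and the B6-TgYF samples C57BL/6JRj-Tg(RP23-159N6*)23Bdm, so the lines also differ in C57BL/6 substrain. The transgene and the substrain cannot be told apart. The B6-TgYF label names 1 transgenic line and no change at Prdm9 itself, while the knockout of that gene appears only in the labels of other samples of the series. The B6 list has d12 in its name, whereas the labels of its samples give 13 days. How many mice went into each library is not given in the sources used here.

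H3K4me3, trimethylation of lysine 4 on histone H3, marks active promoters in every cell type. In meiotic prophase, PRDM9 binds DNA through its zinc fingers and places the same mark at the sites it binds. Those sites then become hotspots of the DNA double-strand breaks that start recombination. As the study is known, its YF transgene changes a tyrosine of the catalytic domain to phenylalanine in a PRDM9 of another binding specificity than that of B6. The comparison therefore asks whether H3K4me3 sites appear when such a protein is supplied beside the PRDM9 of the mouse. Whole testis at this age holds meiotic, premeiotic and somatic cells, and fewer cells of a type cannot be told apart from less of the mark per cell. Markers of these cell types could not be looked up, because no gene annotation of the build of the lists, mm9, was used here.

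On chromosomes 1 to 19, the B6-TgYF list held 41558 peaks over 56.9 Mb and the B6 list 50013 peaks over 66.7 Mb. Median width was 1170 bp in B6-TgYF and 1108 bp in B6. Fold enrichment, the authors' ratio of signal to background at a peak, had a median of 7.52 in B6-TgYF and 7.72 in B6. These medians cover different sets of peaks. In the 38809 pairs described below, of 1 peak per list, the median fold was 7.65 in B6-TgYF and 9.81 in B6. Fold enrichment and −log10 p or q are the authors' own values, used here to describe peaks and to rank them within a list. Where values of the lines are set side by side, they come from lists that were called separately. Each line has 1 list for both of its libraries, so the replicate spread is unknown and no test was run. The 95% Wilson intervals of shares and the 95% order-statistic intervals of medians cover counting error over peaks only. Where a count was 0, the share it is said to allow is that of 3 peaks and not the Wilson limit. Read depth is unknown, as the lists hold no read counts.

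The B6-TgYF list was close to a subset of the B6 list. A peak was called matched when it shared at least 1 bp with a peak of the other list. Of the 41558 B6-TgYF peaks, 41035 (98.7%, interval 98.6 to 98.8) were matched and 523 (1.26%) were not. In the other direction, 40170 of the 50013 B6 peaks (80.3%, interval 80.0 to 80.7) were matched and 9843 (19.7%) were not. The B6 list was 8455 peaks longer. By length of sequence, 96.4% of the base pairs in B6-TgYF peaks lay inside B6 peaks and 82.3% of those in B6 peaks lay inside B6-TgYF peaks. The base pairs in both lists made up 79.9% of those in either. The asymmetry depended on the length of the lists: with both cut to the length of the shorter one by fold enrichment, 92.8% of B6-TgYF and 90.6% of B6 peaks were matched. When a match required 50% reciprocal overlap, 94.5% and 78.6% were matched. An unmatched peak is one that the other list does not hold, and weaker signal under the caller's cutoff would look the same.

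Few peaks lay near the edge of this rule. No matched B6-TgYF peak owed its match to an overlap of 100 bp or less, and 13 of the 523 unmatched ones lay within 100 bp of a B6 peak. Among B6 peaks, 7 were matched by 100 bp or less and 225 of the 9843 unmatched ones lay within 100 bp of a B6-TgYF peak.

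Strength is given below as the percentile of fold enrichment within a peak's own list, and as its decile, where decile 1 is the weakest. The 523 unmatched B6-TgYF peaks had a median fold of 3.64 and a median percentile of 7.78 (interval 7.78 to 8.74). Of these peaks, 330 (63.1%) fell in decile 1, 148 (28.3%) in decile 2 and 41 (7.84%) in decile 3. They made up 7.95% of all B6-TgYF peaks in decile 1 (interval 7.16 to 8.81), 3.60% in decile 2 and 0.968% in decile 3. In the stronger 50% of the list, 20782 peaks with a fold of at least 7.52, a lone peak was unmatched. A −log10 p below 15 was found for 381 of the unmatched peaks (72.8%) and for 8.96% of the matched ones. Most unmatched peaks thus sat just above the lowest −log10 p of the list, which was 11 in both lines.

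**Figure D1:**
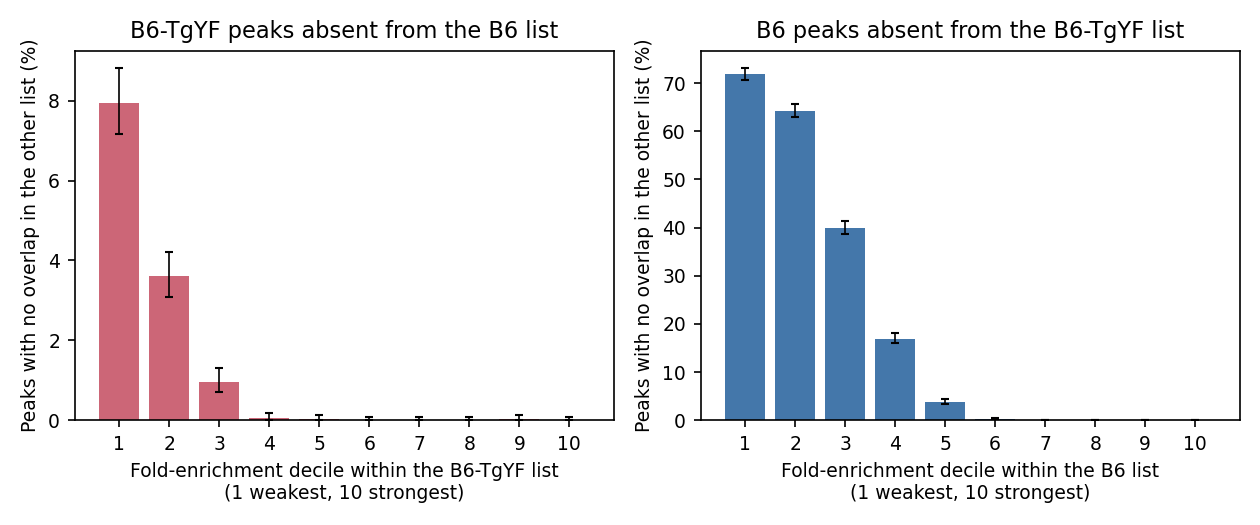
Share of peaks with no overlap in the other list (%, y axis) by decile of fold enrichment within the own list (x axis, 1 weakest), for B6-TgYF (left) and B6 (right). Bars are shares over the peaks of a decile and error bars 95% Wilson intervals; the y axes differ, with 7.95% in decile 1 of B6-TgYF and 71.8% in decile 1 of B6.

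The strongest unmatched B6-TgYF peak was an exception to this weakness, with a fold of 22.32 and a percentile of 81.8, and the next had a fold of 6.12. The following 8 had folds between 4.88 and 6.04. They lay at chr5:21908177-21908891 (mm9, as for all coordinates below), chr6:51003994-51005064, chr8:86703712-86704888, chr8:105929596-105930531, and chr10:63513443-63513904. The last ones were at chr9:119570124-119571020, chr5:125283402-125284476 and chr3:103242752-103243220. The nearest B6 peak was 0.413 kb away for the region on chromosome 9 and 56.2 kb away for the first one on chromosome 5.

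The 9843 unmatched B6 peaks were weak too. Their median fold was 3.89 and their median percentile 13.9 (interval 13.6 to 14.1), and their highest percentile was 60.9, against 81.8 in B6-TgYF. Medians of the lists cannot be ordered firmly, as with lists of equal length they were 10.9 in B6-TgYF and 9.15 in B6, and with 50% reciprocal overlap 19.6 and 14.6. Matching by summits within 500 bp gave 24.9 and 14.6. In decile 1 of the B6 list 71.8% of peaks were unmatched, with 64.3% in decile 2, 39.9% in decile 3, 17.0% in decile 4 and 3.84% in decile 5. Deciles 6 and 7 held 16 and 1 unmatched peaks. In deciles 8 to 10, 0 of 15004 peaks were unmatched, which allows a share of up to 0.0200%. Above the median of the B6 list, 17 of 25026 peaks (0.0679%) were unmatched. The 8777 unmatched B6 peaks in deciles 1 to 3 were 89.2% of all unmatched ones, while 15.3% of matched B6 peaks were that weak.

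The strongest unmatched B6 peak was at chr18:32179750-32180237, with a fold of 10.2 and a percentile of 60.9. It was followed by regions at chr4:42903872-42905166 (fold 9.71) and chr7:106222995-106224108 (fold 9.04). The fourth, at chr7:19586254-19587032 (fold 8.68), lay 79 bp from a B6-TgYF peak. The other 6 had folds of 7.92 to 8.3. They were at chr12:81009355-81010466, chr2:74812248-74813220, chr5:106415312-106416859, chr5:74067856-74068624, chr5:89117796-89118478, and chr7:104613518-104614955. Apart from the fourth, the nearest B6-TgYF peak was between 2.70 kb and 46.4 kb away.

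Unmatched peaks were narrow in both lists. Their median width was 525 bp in B6-TgYF (interval 499 to 551), against 1181 bp for matched peaks of that list, and 617 bp in B6 (interval 610 to 624), against 1281 bp. Weak peaks are narrow in general, so widths were also compared within a decile. In decile 1 the unmatched B6-TgYF peaks had a median of 495.5 bp and the matched ones 696 bp. In decile 2 the values were 551 and 723 bp, and in decile 3 628 and 805 bp. For B6, unmatched and matched medians were 562 and 710 bp in decile 1, 603 and 776 bp in decile 2, 678 and 828 bp in decile 3, 768.5 and 895 bp in decile 4, and 882 and 995 bp in decile 5. The unmatched peaks were thus the narrower ones in each decile that held at least 20 of them.

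Broad H3K4me3 domains were the best matched. Among B6 peaks up to 500 bp wide, 3201 of 4955 (64.6%) were unmatched, and of those over 500 and up to 1000 bp 32.1%. The share was 6.44% of the 19388 peaks over 1000 and up to 2000 bp and 0.0732% (6 peaks) of the 8195 over 2000 and up to 4000 bp. Of the 693 B6 peaks over 4000 bp, 0 were unmatched, which allows up to 0.433%. Of the 491 B6-TgYF peaks over 4000 bp, 0 were unmatched, which allows up to 0.611%. These classes also differ in strength, with a median B6 fold of 3.97 in the narrowest class and 26.5 in the widest.

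Most matches were 1-to-1. In 38809 pairs, 1 B6-TgYF peak and 1 B6 peak overlapped each other and nothing else. Another 1022 B6 peaks (2.04%) overlapped 2 or 3 B6-TgYF peaks, while 187 B6-TgYF peaks (0.450%) overlapped 2 B6 peaks. Division was most frequent in broad domains, as 18.2% of B6 peaks over 4000 bp met several B6-TgYF peaks and 2.16% of those over 1000 and up to 2000 bp. The pieces of a divided B6 peak lay close together, with a median gap of 78 bp and a smallest gap of 51 bp, which was also the smallest gap between neighbours in either list. The strongest of the 30 B6 peaks met by 3 B6-TgYF peaks lay at chr10:12911855-12914409, with a fold of 36.97. Its B6-TgYF pieces had folds of 29.37, 5.06 and 3.3. In the reverse case, the strongest B6-TgYF peak met by 2 B6 peaks was at chr1:53408776-53409819, with a fold of 35.3.

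Paired peaks were slightly narrower in B6-TgYF. Among the 38809 pairs, median width was 1192 bp in B6-TgYF and 1267 bp in B6, and the B6-TgYF peak was narrower in 69.7% of pairs (interval 69.3 to 70.2). The median log2 ratio of B6-TgYF to B6 width was -0.063 (interval -0.065 to -0.061), and it was negative on each of the 19 chromosomes. Both edges contributed alike, with the left edge of the B6-TgYF peak a median of 22 bp to the right and the right edge 22 bp to the left. The B6-TgYF peak lay wholly inside its B6 partner in 45.5% of pairs and the B6 peak inside the B6-TgYF one in 11.5%, and in 43.1% the peaks were offset. Widths were within 25% of each other in 90.1% of pairs. The B6-TgYF peak was narrower by over 50% in 367 pairs and over 2 times as wide in 16.

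The narrowing of paired peaks was present in every decile of B6 fold. By decile of B6 fold among pairs, the median log2 ratio ran from -0.11 in decile 2 to -0.040 in decile 7 and was -0.061 in decile 10. The B6-TgYF peak was narrower in 65.3% to 77.7% of pairs of a decile, most often in decile 10. Fold was also lower in B6-TgYF, with a median of 7.65 against 9.81 over all pairs. At equal fold over all peaks, B6-TgYF peaks were not always narrower. Median width was 683 bp in B6-TgYF and 610 bp in B6 for folds from 3 to below 4. From 15 to below 20 it was 1778 and 1649 bp, from 25 to below 30 2108 and 2132.5 bp, and from 30 to below 35 2228 and 2294 bp.

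The pairs narrowed most lay at chr13:23517610-23519863 in B6 (2254 bp, against 395 bp in B6-TgYF), at chr1:65076179-65079368 (3190 against 612 bp) and at chr7:131111088-131112567 (1480 against 290 bp). The next were at chr1:21610755-21612338 (1584 against 317 bp) and at chr3:32662811-32663779 (969 against 215 bp). The second of these was the only one of the 5 with a B6 fold above 6, at 12.43 against 4.2 in B6-TgYF. The pairs widened most were at chr18:24198081-24198422 (342 bp in B6, 1543 bp in B6-TgYF), chr11:3062859-3063046 (188 and 753 bp) and chr2:71001395-71001643 (249 and 848 bp). They were followed by chr2:133417679-133418163 (485 and 1465 bp) and chr16:34162900-34163588 (689 and 1992 bp). All 5 widened pairs had folds under 5 in both lists.

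**Figure D2:**
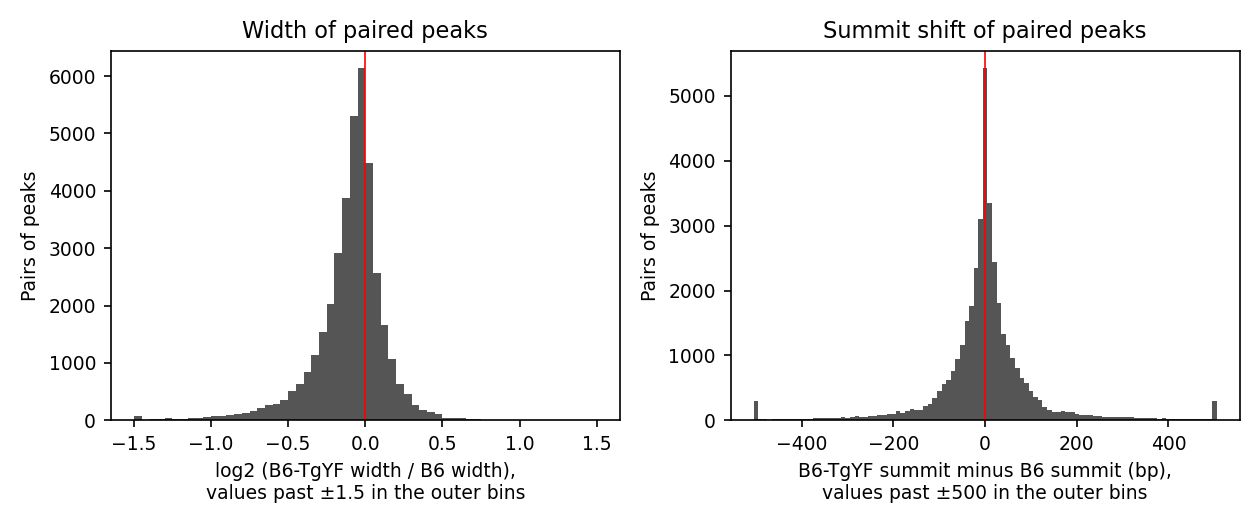
Left, log2 ratio of B6-TgYF to B6 width (x axis) in the 38809 1-to-1 pairs; right, B6-TgYF summit minus B6 summit in bp (x axis); the y axes count pairs and the red lines mark 0. The width ratios lean to the left of 0, with a median of -0.063, while the summit shifts are centred on 0.

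Summits, the positions of highest signal within a peak, were nearly in the same place in both lines. The median distance between paired summits was 32 bp (interval 32 to 33), or 2.59% of the B6 width. They lay within 10 bp of each other in 23.7% of pairs, within 100 bp in 81.9%, within 200 bp in 92.1% and within 500 bp in 98.5%. The shift had no preferred direction, as the B6-TgYF summit was further right in 18974 pairs and further left in 18990. It lay inside the B6 peak in 38805 of the 38809 pairs. Summits were closer in strong peaks, with a median distance of 48 bp in decile 1 of B6 fold and 19 bp in decile 10, and within 100 bp in 75.6% and 88.7% of pairs.

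The largest summit distances were found in broad domains, where the summit moved from one side to the other. Distances of this size can only occur in wide peaks. The median distance was 31 bp in pairs with a B6 peak over 4000 bp and 34 bp over 1000 and up to 2000 bp. At chr15:98723893-98729576, a B6 domain of 5684 bp, the summits were 3959 bp apart, and at chr14:109309922-109313868 they were 2725 bp apart. The others of the 5 lay at chr2:33494380-33500500 (2696 bp apart), chr6:8897852-8902270 (2336 bp) and chr4:44723479-44727636 (2309 bp). In all 5 the domain was at least 3947 bp wide in both lists and its width changed little, with log2 ratios between -0.0052 and 0.12.

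Paired peaks ranked alike by strength. Across the 38809 pairs, Spearman's rho was 0.914 for fold enrichment, 0.964 for −log10 q and 0.958 for width. Pairs are not independent replicates and share the genome and the caller, so no p-value is given. Rank order was looser among weak peaks, with a rho of 0.580 in the weaker 50% of pairs by B6 fold and 0.852 in the stronger 50%. Because the B6 list holds more weak peaks, percentiles within each list are shifted between lines by construction, with a median difference of -6.61. Ranks were therefore also taken among the pairs alone. There the median absolute difference was 6.72 percentiles, 80.4% of pairs were at most 1 decile apart and 2000 pairs (5.15%) differed by over 25 percentiles.

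At the very top the lists shared fewer ranks. All of the 1000 strongest peaks of either list were matched in the other list in full. Yet 19 of the 100 strongest B6-TgYF peaks overlapped one of the 100 strongest B6 peaks, and 385 of the 1000 strongest overlapped one of the 1000 strongest. The overlap was 65.4% for the strongest 5000 and 86.8% for the strongest 10000. Folds at the top lie close together, with decile 10 of B6-TgYF spanning 27.28 to 40.43 and that of B6 28.91 to 40.52.

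**Figure D3:**
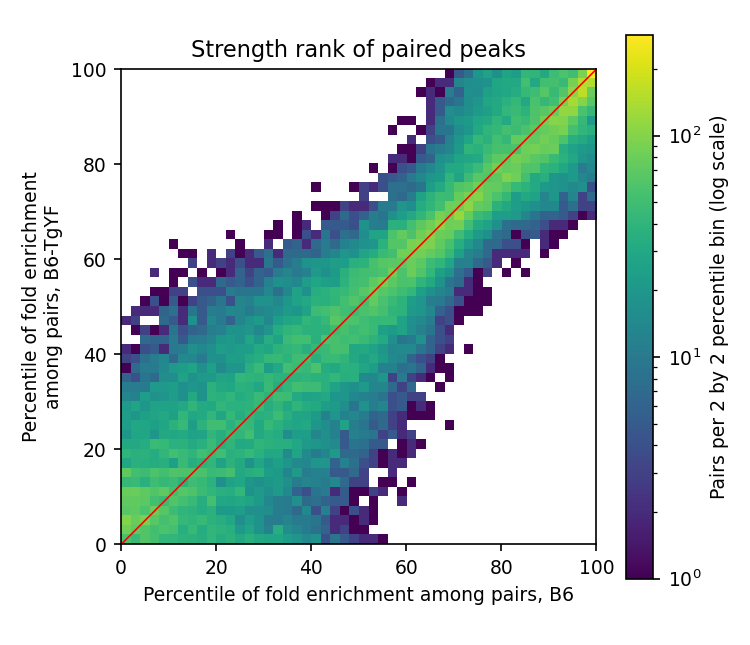
Percentile of fold enrichment among the 38809 pairs in B6 (x axis) and in B6-TgYF (y axis), with colour for the number of pairs per bin on a log scale and the red line for equal rank. Pairs follow the line and spread most among weak peaks, where rho was 0.580 against 0.852 in the stronger 50%.

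The pairs of highest mean percentile were at chr6:72386448-72391128 in B6 (fold 40.44 in B6 and 38.44 in B6-TgYF), chr4:94222236-94224380 (40 and 38.28) and chr6:35488119-35490137 (40.44 and 37.7). The next were at chr15:81876247-81878850 (39.41 and 38.03) and chr13:96144052-96145967 (39.05 and 38.28). Their summits were 9 to 20 bp apart.

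The pairs that ranked furthest apart by percentile of their own lists had an intermediate fold in one list and a low fold in the other. In the first direction, the B6-TgYF rank was higher by 40.2 to 45.9 percentiles of the lists, or 39.8 to 46.4 percentiles among pairs. Ranked among the pairs alone, the largest rise of any pair was 50.5 percentiles, at a pair not named here. These 5 pairs lay at chr9:73039985-73040677 (fold 3.16 in B6 and 7.25 in B6-TgYF), chr4:151286836-151287776 (3.33 and 7.28) and chr18:15242867-15244018 (3.43 and 7.36). The rest were at chr7:51952310-51953232 (3.46 and 7.08) and chr5:119410246-119411047 (2.97 and 6.24). In the other direction, the largest difference was at chr10:116611467-116612248, with folds of 11.4 for B6 and 2.76 for B6-TgYF. The next ones were chr11:79401806-79403400 (10.42 and 3.03), chr19:28164688-28165686 (10.72 and 3.23), chr19:28832975-28833881 (10.15 and 2.88), and chr11:69040911-69041766 (10.07 and 3.17). The lists were called separately, and these pairs were picked for their difference. In 9 of the 10 the summits lay within 69 bp of each other.

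Unmatched B6-TgYF peaks were found on every autosome, from 0.931% of the peaks of chromosome 4 to 2.02% on chromosome 11 and 2.17% on chromosome 14. Chromosome 11 held 60 of the 523 (11.5%) and 7.16% of all B6-TgYF peaks. Of the 60, 21 lay within 69.3 kb at its start, at chr11:3030711-3100014. Without the first 100 kb counted from its first peak, the share on chromosome 11 was 1.32% (39 of 2947 peaks, interval 0.970 to 1.80). Unmatched B6 peaks made up 15.1% of the B6 peaks on chromosome 17 and 15.2% on chromosome 11, and between 18.6% and 22.0% on the other autosomes. Those chromosomes also held the smallest shares of weak peaks, with 25.3% and 25.9% of their B6 peaks in deciles 1 to 3. Chromosomes 9 and 2 came close, with 26.0% and 26.1%, but 18.8% of the B6 peaks on each were unmatched. Within deciles 1 to 3, 53.4% were unmatched on chromosome 17, 54.3% on chromosome 11 and 63.7% on chromosome 7, the highest share.

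**Figure D4:**
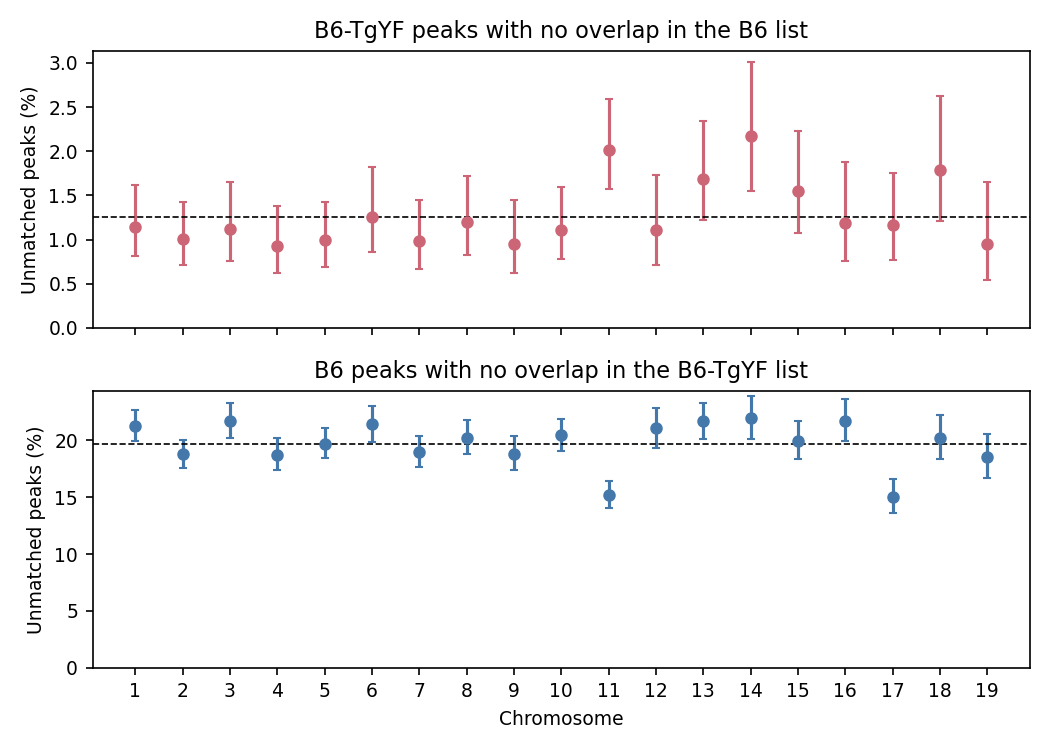
Share of peaks with no overlap in the other list (%, y axis) on each autosome (x axis) for B6-TgYF (top) and B6 (bottom); points are shares, error bars 95% Wilson intervals, and dashed lines the shares over all autosomes of 1.26% and 19.7%. Chromosomes 11 and 14 are highest in the top panel, and chromosomes 11 and 17 lowest in the bottom panel.

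The 21 unmatched peaks at the start of chromosome 11 differed from the rest in fold as well. Their folds ran from 1.41 to 1.83, with a median of 1.53 and a median width of 404 bp. In the same first 100 kb each list had 7 matched peaks, with folds of 1.41 to 9.85 in B6 and 1.55 to 8.15 in B6-TgYF. A fold under 2 was rare elsewhere: of the 25 B6-TgYF peaks with such a fold on all autosomes, 23 lay in this stretch, as did 3 of the 4 in B6. The longest runs of unmatched B6-TgYF peaks with no matched peak between them lay here, with 13 peaks at chr11:3064442-3097059 and 5 peaks at chr11:3035550-3061835. Every other run was of 2 peaks, 16 runs in all, and 473 unmatched peaks stood alone.

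**Figure D5:**
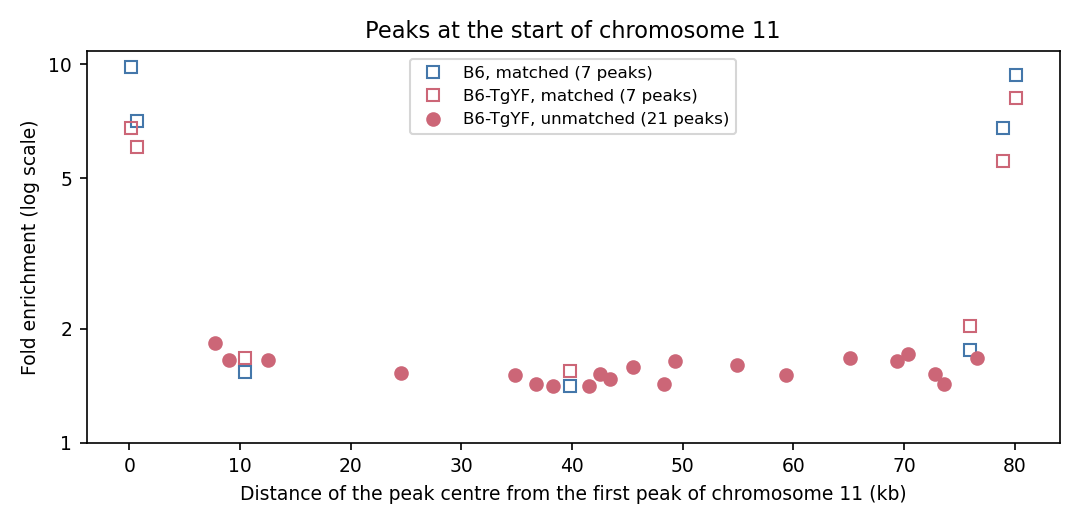
Fold enrichment (y axis, log scale) of each peak in the first 100 kb from the first peak of chromosome 11 against its distance from that peak (kb, x axis), with open squares for matched and filled circles for unmatched peaks. The 21 unmatched B6-TgYF peaks lie at folds of 1.41 to 1.83 between stronger matched peaks at both ends. Among them lie matched B6-TgYF peaks with folds of 1.68, 1.55 and 2.03, whose B6 partners have folds of 1.54, 1.41 and 1.76.

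That stretch also set the share near chromosome starts. Within 5 Mb of the first peak of a chromosome lay 7.27% of the unmatched B6-TgYF peaks (interval 5.34 to 9.82) and 3.03% of the matched ones, but 3.39% of the unmatched ones (interval 2.12 to 5.36) without the first 100 kb of chromosome 11. Within 5 Mb of the last peak, the shares were 6.12% and 5.43%. Of 358 B6-TgYF peaks within 1 Mb of the last peak, 0 were unmatched, which allows up to 0.838%. For B6, 3.24% of the unmatched and 3.03% of the matched peaks lay within 5 Mb of the start and 4.44% (interval 4.05 to 4.86) and 5.42% (interval 5.20 to 5.65) within 5 Mb of the end.

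Unmatched peaks overlap no peak of the other list by definition, so their distance to it is set beside that of matched peaks. The nearest B6 peak was a median of 9.53 kb from an unmatched B6-TgYF peak, and 82 of the 523 (15.7%) lay within 1 kb of one. From a matched B6-TgYF peak, the nearest B6 peak that did not overlap it was a median of 8446 bp away. For unmatched B6 peaks the median distance to a B6-TgYF peak was 13.2 kb, and 14.0% lay within 1 kb. For matched B6 peaks, the median distance to a B6-TgYF peak that did not overlap them was 10423.5 bp. Within the B6 list, the median distance to the nearest other B6 peak was larger for unmatched than for matched peaks in each of deciles 1 to 5. In decile 2 the nearest other B6 peak was a median of 10.3 kb away for unmatched and 8.26 kb for matched peaks, and in decile 3 the values were 10.2 and 8.69 kb. Yet 18.9% of the unmatched and 17.7% of the matched peaks of decile 2 lay within 1 kb of another B6 peak, as did 18.3% and 17.6% in decile 3. In the B6-TgYF list the order varied, with 10.4 kb for unmatched and 11.3 kb for matched peaks in decile 1 and 10.9 and 10.2 kb in decile 3.

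Unmatched B6 peaks also came in runs. There were 1617 runs of 2 or more, with 3789 of the 9843 peaks, and 18 such runs with 50 of the 523 peaks in B6-TgYF. Runs depend on the share of a list that is unmatched, 19.7% and 1.26%, so these counts do not compare the lines. The longest had 9 peaks at chr18:66673892-66967026, with folds of 3.37 to 5.81 and no B6-TgYF peak inside. The next had 8 peaks at chr13:79076777-79793330. Of the runs with 6 peaks, 3 are named here, at chr3:31209417-32058730, chr3:111584101-112788627 and chr3:120588966-120806347. Other runs were as long as these 3, as 35 runs had 5 or more peaks, with 194 peaks in all. In 500 kb windows, the highest counts of unmatched B6 peaks were 13 of 38 peaks at chr10:67000001-67500000, 13 of 40 at chr10:116500001-117000000 and 11 of 25 at chr5:53000001-53500000. Apart from the start of chromosome 11, no window held more than 3 unmatched B6-TgYF peaks. Of the windows with 3, those named are chr6:52000001-52500000 (3 of 45 peaks) and chr18:21000001-21500000 (3 of 13 peaks). Other windows may hold as many.

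At equal fold enrichment, the B6 list gave a higher −log10 p. An equal fold does not pick the same sites in both lists, as paired peaks had a median fold of 9.81 in B6 and 7.65 in B6-TgYF. Peaks with folds from 3 to below 4 had a median −log10 p of 15.34 in B6 and 14.135 in B6-TgYF, and those from 8 to below 10 had 82.25 and 70.84. From 25 to below 30 the values were 450.02 and 364.95. In the lowest of these fold ranges 72.0% of B6 peaks and 6.69% of B6-TgYF peaks were unmatched, and from 5 to below 6 the shares were 20.4% and 0.0963%. The part of this difference in the number of unmatched B6 peaks was not tested.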

How the data were processed

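Labels grouped the samples by antibody and line. CASAVA, BWA, Bowtie2 and MACS2 appear in the submitters' processing notes without role or version, as does mm9. The peak cutoff and the way replicates were combined: not given in the sources used here. The authors deposited 1 list per line. Its fold enrichment is a ratio to background, and its −log10 p and −log10 q are the authors' values. The deposited score was 10 times −log10 p, truncated. Coordinates are counted from 1.

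Chromosomes 1 to 19 were compared. Named regions were chosen as the 10 strongest unmatched peaks per list, the 5 most extreme pairs by mean percentile, rank difference, width ratio and summit distance, the strongest divided peaks, the 5 longest runs and the 3 fullest 500 kb windows. Tied runs and windows are not all named. The members and lists were chosen with earlier results of these data known. The matching code recovered all planted values at 5000 simulated sites. Other overlap rules, stricter or equally long lists, chromosome X and ranks by −log10 q were tried as alternatives. Read depth is unknown. The positions of the 2 strongest unmatched B6-TgYF peaks are not reported here. No mm9 sequence or annotation was used, so no gene was assigned. Python 3.11.15, numpy 2.4.6, pandas 2.3.3 and scipy 1.17.1 were used.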

Additional observations from a re-analysis of the deposited data

Results flagged for a closer look

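Chromosome Y was outside the comparison, and its peaks are given for that reason. The B6-TgYF list held 5 peaks there, with folds of 5.21 to 16.7, and all 5 overlapped one of the 6 B6 peaks.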

How the results depend on the processing

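Of 62 values recomputed over 12 results under other choices, 24 moved by less than their counting interval and 38 by more. The 38 include every alternative for the share of base pairs. The interval of that share treats base pairs as independent counts, so even a very small shift passes it. In each setting run the matched share was higher for B6-TgYF than for B6. With 50% reciprocal overlap, 94.5% of B6-TgYF and 78.6% of B6 peaks were matched, and unmatched medians were percentile 19.6 and 579 bp in B6-TgYF and percentile 14.6 and 640 bp in B6. With summits within 500 bp, the shares were 95.4% and 79.2%, the medians percentile 24.9 and 877 bp against 14.6 and 647 bp, the log2 width ratio -0.066 and rho 0.915. The strongest 50% of the list asked about gave shares of 99.995% and 99.9%, 97.7% of B6-TgYF base pairs inside B6 peaks, a log2 width ratio of -0.051, a summit distance of 25 bp and a rho of 0.858. With both lists cut to equal length by fold, 92.8% and 90.6% of peaks and 93.5% of B6-TgYF base pairs were matched, and the shares of the lines lay closer together. The medians of unmatched peaks were then percentile 10.9 and 650.5 bp in B6-TgYF and percentile 9.15 and 694 bp in B6. Ranked by −log10 q, they were percentile 5.20 and 11.8, and rho was 0.964. Adding chromosome X gave 96.5% of base pairs and percentile 7.66 for unmatched B6-TgYF peaks. Leaving out the first 100 kb of chromosome 11, a choice made after seeing the data, also gave 96.5% of base pairs. The causes were not tested.

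No paired analysis was possible because the replicates of a line share 1 peak list. Leaving out a replicate was not possible for the same reason. Depth cannot be set beside the length of the lists, as they hold no read counts.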

Other observations

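Chromosome X was also outside the comparison. It held 938 B6-TgYF peaks, of which 7 (0.746%) overlapped no B6 peak, and 1157 B6 peaks, of which 270 (23.3%) overlapped no B6-TgYF peak. Median fold enrichment there was 10.42 in B6-TgYF and 10.88 in B6.

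In 1466 windows of 1 Mb with at least 10 pairs, the median difference in percentile among pairs ran from -14.1 (chromosome 18, 10 pairs) to 13.4 (chromosome 14, 10 pairs), and it passed 10 in either direction in 6 windows. These windows were looked at after the data were seen.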
